A study of Mus musculus with 2 samples.

Results

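The genes described here encode the proteins of the cytosolic ribosome in mouse pancreatic islets. They were chosen by symbol: Rpl or Rps followed by a digit, Rplp followed by a digit, or Rpsa, without the Rps6k kinases and without copies whose symbol holds -ps. The rule found 87 of 27998 genes in the list of the wild-type (WT) library. By symbol, 53 belong to the large subunit and 33 to the small subunit. Rps19bp1 matches the pattern but is no ribosomal subunit; it binds Rps19. Rpl6l is a processed pseudogene in the GENCODE M21 annotation. Of the 87 members, 83 reached 20 CPM (UMIs of a gene per 1e+06 UMIs) over all cells.

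The WT islets came from male wild-type mice 8 weeks old after a 12-hour fast, and the islets of the second group came from male mice of the same age and fast that carried a miR-203 transgene. The labels place that transgene in beta cells and do not name its promoter or the number of mice pooled. There was 1 library per group, made with the 10x Genomics 3′ v2 kit, in which a unique molecular identifier (UMI) stands for 1 captured transcript end. Of the transgenic matrix only 782 UMIs in droplets without a cell were at hand, so the values below are those of the WT library. They have no replicate check and carry no test, and the intervals in parentheses are exact 95% bounds on counting error alone.

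A WT barcode was taken as a cell with 500 genes or more and a UMI total of 10% or more of the top level, set as the 99th percentile among the 3000 largest barcodes. This gave 4547 cells, the smallest with 5641 UMIs. They held 88.3% of the library's UMIs. A cell was beta where Ins1 and Ins2 took at least 30% of its UMIs (3261 cells), otherwise alpha with at least 8% Gcg (471), delta with at least 3% Sst (149), PP with at least 8% Ppy (117), or none of these (549). Of the markers other than hormones, 5 of 7 beta, 5 of 6 alpha and 4 of 4 delta genes stood highest in their own class, but 0 of 3 PP genes did, so PP names a rule and not a checked type. The PP class also held 2528 CPM of haemoglobin transcripts, against 20.04 CPM in beta cells and 25.3 CPM in alpha cells. Among alpha cells 47 met the criterion of a second class and 1 met 3, and among delta cells 12 met 2. Barcodes shared with the other library were not counted, and no doublet caller was run.

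Most ribosomal proteins are needed in equal numbers for each ribosome, and the messages of ribosomal proteins are among the most abundant in most cells. Many of these messages begin with a C followed by a run of pyrimidines, the 5′ terminal oligopyrimidine (TOP) tract, through which mTOR signalling controls how strongly they are translated. In an endocrine cell they share the transcript pool with hormone messages, which are among the most abundant messages of any tissue.

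The start sites of a few members are shown because the TOP tract is the sequence these genes are best known to share. The windows are 30 bases of RefSeq (GRCm38.p6), 15 before and 15 from the annotated start onward, read 5′ to 3′ on the gene's strand. Capitals mark a C at the start base together with the pyrimidines that follow it. The first 7 have such a tract and the last 2 do not.
Rpl14: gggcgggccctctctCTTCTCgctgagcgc
Rpl35a: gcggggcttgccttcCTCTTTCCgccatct
Rpl28: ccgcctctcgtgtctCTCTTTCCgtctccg
Rplp2: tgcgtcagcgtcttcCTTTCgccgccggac
Rps18: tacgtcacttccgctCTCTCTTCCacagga
Rps27: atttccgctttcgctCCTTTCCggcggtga
Rps27rt: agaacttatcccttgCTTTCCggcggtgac
Rpl13: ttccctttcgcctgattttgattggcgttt
Rpsa: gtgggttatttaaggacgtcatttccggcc
The windows lie at chr9:120571502-120571531 (Rpl14, plus strand), chr16:33056467-33056496 (Rpl35a, plus), chr7:4792950-4792979 (Rpl28, plus) and chr7:141447636-141447665 (Rplp2, plus). The others lie at chr17:33955651-33955680 (Rps18, minus), chr3:90213634-90213663 (Rps27, minus), chr9:114982725-114982754 (Rps27rt, minus), chr8:123102335-123102364 (Rpl13, plus) and chr9:120127751-120127780 (Rpsa, plus).

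Of the 87 members, 66 were matched by symbol in the promoter table, with 78 start sites. A C at the start base followed by at least 4 pyrimidines (C or T, on the gene's strand) was found at 14 of the 78 sites, 17.9% (10.2 to 28.3), against 2.51% of all 32851 start sites in the table. The 14 members with the tract had a median log2 ratio of -1.12 between beta and alpha cells, defined below, and the 49 tested members of the table without it also had -1.12. Between beta and delta cells these medians were -0.21 and -0.24. Members with and without the tract at the annotated start thus had like medians. Within 3 bases either way a tract was found at 34.6% of member sites, against 11.5% of all sites. The split by the annotated start base therefore does not part TOP messages from others, and the medians do not compare them.

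Ribosomal protein messages took the smallest share of the transcript pool in beta cells and the largest in alpha cells. They made up 6.98% of all UMIs in beta cells, 20.1% in alpha cells, 15.1% in delta cells, 12.3% in PP cells and 15.5% in cells of no class. Insulin, the other hormones and amylin held 56.7% of UMIs in beta cells and 29.8% in alpha cells, so shares were also taken over the UMIs left without 7 hormone genes and the 13 mitochondrially encoded genes. Over these remaining UMIs the members held 17.4% in beta cells, 29.6% (29.5 to 29.6) in alpha cells, 20.4% (20.3 to 20.4) in delta cells, 23.2% (23.1 to 23.2) in PP cells and 21.1% in cells of no class. Alpha cells stood highest and beta cells lowest on both scales, while delta and PP cells changed places.

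The classes overlapped little between beta and alpha cells and widely between beta and delta cells. Over single beta cells the members' share of the remaining UMIs had a 10th percentile of 14.1%, a median of 17.3% and a 90th percentile of 20.4%. Alpha cells had 24.3%, 29.2% and 34.7%. Delta cells had 15.5%, 18.9% and 24.7%, and PP cells 17.0%, 21.5% and 28.3%. Only 22 of 3261 beta cells (0.675%) lay above the alpha 10th percentile, and 10 of 471 alpha cells (2.12%) lay below the beta 90th percentile. The median beta cell held 1672 member UMIs of 23415 in all, and the median alpha cell 2979 of 15455. Alpha cells thus held more member UMIs from fewer UMIs in total, whereas the median delta cell held 1272 of 9179.

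**Figure D1:**
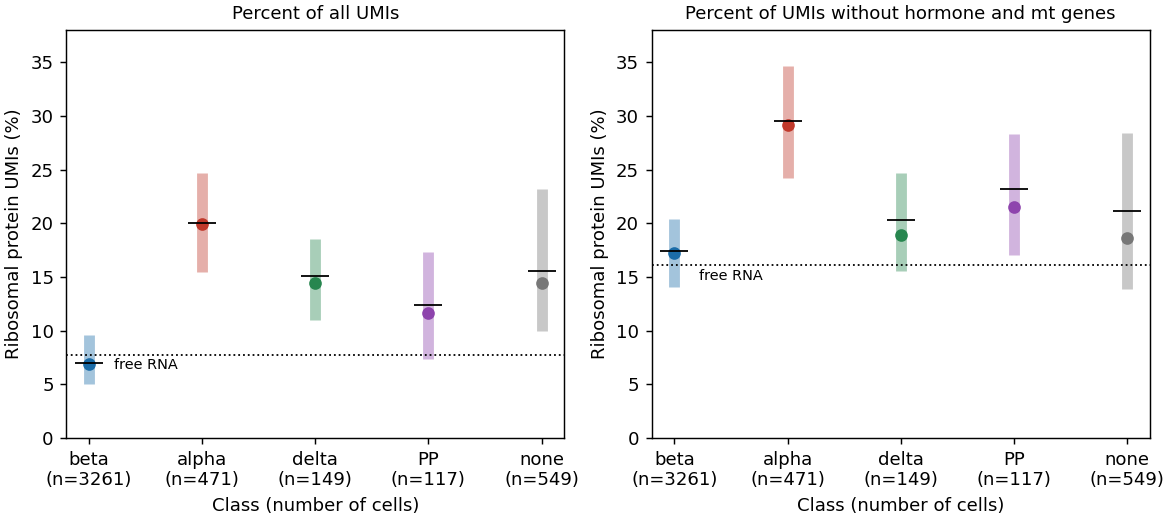
Percent of UMIs on the 87 ribosomal protein genes per WT class, of all UMIs (left) and without hormone and mitochondrially encoded genes (right); points are medians over cells, thick bars the 10th to 90th percentile, dashes the summed class and dotted lines the free RNA of droplets of at most 200 UMIs. On the right the beta bar ends at 20.4% and the alpha bar begins at 24.3%.

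Droplets without a cell hold RNA that leaked from the whole preparation, and those of at most 200 UMIs served as its measure. The members made up 7.76% of their UMIs, and 16.1% without hormone and mitochondrial UMIs. Scaled by Gcg in beta cells and by insulin in the other classes, free RNA could account for at most 9.93% of UMIs in beta, 9.33% in alpha, 14.9% in delta and 14.8% in PP cells. With that amount taken off, the share of the remaining UMIs was 17.6% in beta, 30.5% in alpha, 20.8% in delta and 24.2% in PP cells, in the same order as before.

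Member by member, the ratio of CPM between 2 classes was taken on the log2 scale where a gene had at least 20 CPM in one of both, and the median ratio of all tested genes was subtracted. A member was counted as higher or lower past log2 0.58, a fold of 1.5. The median gene itself lay at -0.46 for beta over alpha, -0.89 for beta over delta, -0.33 for beta over PP and -0.45 for alpha over delta in CPM. Of the 87 members, 84 reached the level needed. Rpl3l, Rpl10l and Rpl39l, relatives of Rpl3, Rpl10 and Rpl39 with expression known from muscle or testis, did not. Rpl10l had 0 UMIs in all cells, which allows up to 0.0352 CPM, Rpl3l had 1 UMI and Rpl39l had 4, all in beta cells. Rpl6l, at 12.1 CPM in beta cells, reached the level only through the other class in each comparison with beta cells. It is counted as lower in each of them.

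Of the 84, 79 were lower in beta than in alpha cells and 0 were higher, with a median of -1.08. Among all 4558 genes tested, 15.5% were lower and 16.6% higher. Against delta cells 8 of 84 were lower and 0 higher, with a median of -0.22, beside 15.3% and 15.5% of 5520 genes. That share of lower members was below the share of all genes on this centred scale. In CPM without centring 83 were lower, with a median of -1.11, but the median gene itself then lay at -0.89, past the limit. With cells of at least 10000 UMIs 14 were lower, with a median of -0.35. Against PP cells 32 were lower and 0 higher, with a median of -0.51, beside 13.4% and 15.3% of 4412 genes. In CPM without centring 71 were lower, with the median gene at -0.33. Without hormone and mitochondrial UMIs and without centring 15 were lower, with the median gene at 0.08. For alpha over delta 75 were higher and 0 lower, with a median of 0.88, beside 9.08% and 11.0% of 5540 genes. In CPM without centring 16 were higher, with a median of 0.44 beside -0.45 for the median gene. Without hormone and mitochondrial UMIs and without centring 36 were higher, with a median of 0.56 beside -0.32 for the median gene. Shares of all genes were counted only on the centred scale with all cells of a class, so the other counts have no such share beside them. The comparisons share classes, so their counts do not stand independently.

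The large and the small subunit had like ratios. The median for beta over alpha was -1.08 for 50 large-subunit and -1.13 for 33 small-subunit genes, and for beta over delta -0.21 and -0.25. Large-subunit genes took 60.5% of member UMIs in beta cells, 59.6% in alpha, 59.6% in delta and 59.4% in PP cells. On the scale without hormone and mitochondrial UMIs, 79 of the 83 members of at least 20 CPM over all cells were highest in alpha cells. The 4 exceptions were Rps19bp1 (highest in beta), Rpl3 (delta), Rps27l and Rpl7l1 (both PP). On that scale 66 were lowest in beta and 15 in delta cells, and Rps19bp1 was lowest in alpha cells. The share of all genes highest or lowest in each class was not counted, so these counts have no background beside them. The median gene on that scale lay at 0.30 for beta over alpha and at -0.32 for alpha over delta.

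**Figure D2:**
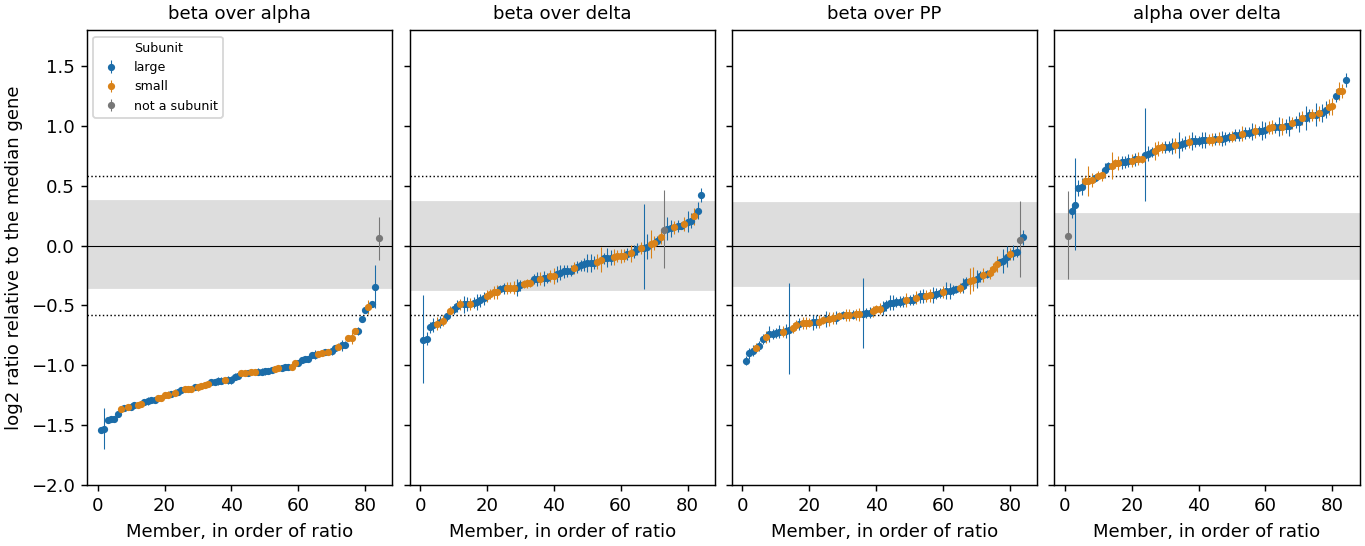
log2 ratio of each of 84 members between 2 classes relative to the median gene, in order of ratio within each panel; bars are 95% exact counting intervals, the grey band spans the lower to the upper quartile of all genes tested and dotted lines mark log2 0.58 either way. For beta over alpha 79 members lie under the lower line, and for beta over delta 76 lie between the lines.

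Rpl23a, the large-subunit protein near the exit of the peptide tunnel, had the lowest beta over alpha ratio. It stood at 681 CPM in beta, 2724 in alpha, 2025 in delta and 1595 in PP cells, a log2 ratio of -1.55 (-1.57 to -1.52) for beta over alpha and -0.69 for beta over delta. Rpl35a, a large-subunit protein whose human gene is mutated in some cases of Diamond-Blackfan anaemia, stood at 965 CPM in beta and 3643 in alpha cells, a log2 ratio of -1.46. Both were thus low in beta cells even when set against the other members. The pseudogene Rpl6l had 12.1 CPM in beta and 48.1 in alpha cells, a log2 ratio of -1.53 (-1.71 to -1.36). It was tested through alpha cells alone, where it stood higher. Rpl6l shares 61.8% of its 50-base stretches with Rpl6, so part of its counts may belong to that gene, which had -1.30.

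At the other end, Rps19bp1, which is no subunit, had 27.8 CPM in beta and 36.6 in alpha cells, a log2 ratio of 0.06 (-0.12 to 0.24). Rpl7l1, a relative of Rpl7 with a role in ribosome assembly, had 22.0 and 38.2 CPM, a log2 ratio of -0.34 (-0.52 to -0.16). Rpl7 itself had 427 and 1553 CPM, a log2 ratio of -1.41. So in this comparison the 2 members best described as accessory to the ribosome lay nearest to the median gene. For beta over PP Rps19bp1 stood at 0.04 but Rpl7l1 at -0.57, below the median member at -0.51. With 0.71 (Rps19bp1) and 0.56 (Rpl7l1) UMIs per beta cell, both were near the floor of 20 CPM. Rpl41, the shortest member, was the third highest for beta over alpha at -0.49 (-0.50 to -0.47). Rps27l (-0.51) and Rpl36 (-0.54) were the others within the band. Rpl39 lay just outside it at -0.62.

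Rpl3, which helps form the peptidyl transferase centre, departed from the rest in delta cells. It stood at 549 CPM in beta, 1565 in alpha, 1744 in delta and 959 in PP cells. Its log2 ratio was -0.78 (-0.83 to -0.73) for beta over delta and 0.29 (0.23 to 0.35) for alpha over delta, where the median member stood at 0.88. Rpl13, a large-subunit protein, was lowest for beta over PP, at 1184 CPM in beta and 2894 in PP cells, a log2 ratio of -0.96, followed by Rpl23a (-0.90) and Rpl14 (-0.88). Rpl39 (0.07), Rps19bp1 (0.04) and Rpl36 (-0.05) were the highest there. The other members lower in beta than in delta cells were Rpl6l, Rpl23a, Rpl22l1, Rps9, Rpl14, Rps4x and Rpl13, the last at -0.59 just past the limit.

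The stalk proteins Rplp0, Rplp1 and Rplp2 form the flexible arm that recruits elongation factors. Each stood higher in alpha than in delta cells, as did 75 of the 84 members, with a median of 0.88 over the 84. Rplp1 had 1102 CPM in beta, 2911 in alpha, 1520 in delta and 1653 in PP cells. Its log2 ratio of 1.38 (1.32 to 1.44) for alpha over delta and of 0.42 (0.37 to 0.48) for beta over delta were the highest of all members. Rplp0 had 872 CPM in beta, 2933 in alpha, 1675 in delta and 1882 in PP cells, with 1.25 for alpha over delta and -0.05 for beta over delta. Rplp2 had 854, 2586, 1761 and 1484 CPM in that order, with 1.00 and -0.16. Rpsa, a small-subunit protein also known as the laminin receptor, had 643 CPM in beta, 1804 in alpha and 1004 in delta cells, with 1.29 for alpha over delta and 0.24 for beta over delta. Rpl28 of the large subunit, at 645 CPM in beta and 974 in delta cells, was second to Rplp1 for beta over delta at 0.29.

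Within pairs of like genes, the member with the standard name and its relative kept unlike distances from the median gene. Rpl22 had 249 CPM in beta, 610 in alpha and 464 in delta cells, and its relative Rpl22l1 had 444, 1332 and 1302 CPM. Rpl22l1 thus had the higher count in each class, and its log2 ratio for beta over delta was -0.66 against -0.01 for Rpl22. Rps27 had 1870 CPM in beta and 4747 in alpha cells (log2 ratio -0.89), and Rps27l, which is known as a p53 target, 189 and 370 CPM (-0.51). Rps27rt, with 218 and 510 CPM, shares 89.9% of its 50-base stretches with Rps27, so the counts of these 2 cannot be told apart with confidence. The X-linked Rpl36a had 377 CPM in beta and 1317 in alpha cells (-1.35), and its autosomal relative Rpl36al 498 and 1123 CPM (-0.72). Levels of different genes are UMI counts of 3′ ends and were not divided by length.

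Members lay on 19 chromosomes, and 4 of them are X-linked: Rpl10, Rpl36a, Rpl39 and Rps4x. Their log2 ratios for beta over alpha were -0.91, -1.35, -0.62 and -1.20; none of the 4 was among the 3 lowest or the 3 highest members. Rps4x had 746 CPM in beta and 2132 in delta cells. Rps4l has no row in the gene list, and no member lies on chromosome Y. Rps27a, which is made as a fusion with ubiquitin, had 1073 CPM in beta and 3562 in alpha cells, a log2 ratio of -1.28.

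Within beta cells the members' share of all UMIs was lower where insulin took more of the pool, but their share of the remaining UMIs spanned a narrow range. From cells of 30 to 40% insulin to cells of 60% and more, the share of all UMIs was 9.76%, 7.87%, 6.34% and 4.91%. Over the remaining UMIs it was 18.1%, 17.6%, 17.1% and 16.9%. Spearman's rho with the insulin share was -0.79 and -0.11 over the 3261 cells, which come from 1 library and share its free RNA; the first holds insulin in its denominator. The median number of member UMIs per cell was 2060, 1667, 1591 and 1636 over the 4 bins, while the median total was 21534, 20999, 24513 and 34322. The mitochondrial share moved with the bins too, from 4.72% to 2.13%, and its part in these values was not tested.

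Member by member, 391 beta cells of at least 60% insulin were set against 473 of under 40%. None of 83 tested members lay past log2 0.58 in either direction, beside 7.30% of 4632 genes that were lower and 14.7% that were higher. The median member stood at 0.10 relative to the median gene, and at -0.08 on the scale without hormone and mitochondrial UMIs. Rps27l was the highest at 0.57 and Rpl41 the lowest at -0.18. In alpha cells, bins of glucagon share gave 29.8%, 30.0%, 29.3% and 29.3% of the remaining UMIs, from 8 to 15% Gcg up to 25% and more. The difference between alpha and beta cells thus stood in every bin of hormone share.

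**Figure D3:**
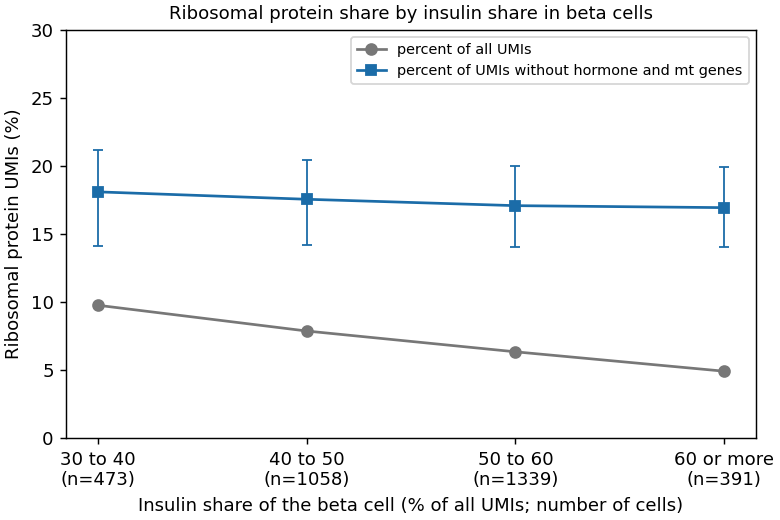
Percent of UMIs on ribosomal protein genes in WT beta cells, by insulin share of the cell; circles are the percent of all UMIs, squares that without hormone and mitochondrially encoded genes, both from summed UMIs, and bars on the squares the 10th to 90th percentile over cells. The circles go from 9.76% to 4.91% and the squares from 18.1% to 16.9%.

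Alpha cells stood above beta cells at each depth compared. Beta cells of 10000 to 20000 UMIs held 17.0% of members among the remaining UMIs, those of 20000 to 30000 held 17.7% and those of 30000 and more 17.3%. Alpha cells of these depths held 29.2%, 30.6% and 30.9%. Delta cells of under 10000 UMIs held 18.2% and those of 10000 to 20000 held 20.6%.

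Rpl41, the shortest protein of the ribosome, was the most abundant member in each class and had the largest scatter between beta cells and between alpha cells, by a measure that grows with the mean count. It held 6.24% of all member UMIs in beta cells, followed by Rpl37a (2.82%) and Rpl10 (2.76%). In beta cells the variance of its count about the cell's member total was 6.39 times that of random sampling, against a median of 1.24 over 83 members, 2.24 for Rpl37a and 2.20 for Rpl10. In alpha cells the factor was 3.78 for Rpl41 against a median of 1.33. Over members, the factors in beta and alpha cells had a Spearman's rho of 0.71.

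Rpl41 and Rpl10, a late-joining large-subunit protein, went in opposite directions across beta cells. These values were looked at after the scatter was known. Per beta cell, Rpl41 took 4.70% of member UMIs at the 10th percentile, 6.15% at the median and 8.55% at the 90th, and Rpl10 took 1.94%, 2.72% and 3.52%. The rho between both shares was -0.47 over 3261 cells, which have the same denominator. From beta cells under 2% mitochondrial UMIs to those of 5% and more, the summed Rpl41 share went through 5.31%, 5.89%, 6.36%, 6.73% and 7.31%, and that of Rpl10 through 3.10%, 2.90%, 2.73%, 2.56% and 2.37%. Alpha cells showed the same order in 3 bins, 3.87%, 4.25% and 4.45% for Rpl41 and 2.64%, 2.45% and 2.27% for Rpl10. So did delta cells, with 4.56%, 4.69% and 5.06% for Rpl41 and 3.26%, 3.05% and 2.80% for Rpl10. PP cells gave 4.41%, 4.80% and 5.42% for Rpl41 and 2.63%, 2.51% and 2.44% for Rpl10. Median depth went from 33728 to 18252 UMIs over the beta bins and from 14917 to 16500 over the alpha bins, and its part in the pattern was not tested.

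**Figure D4:**
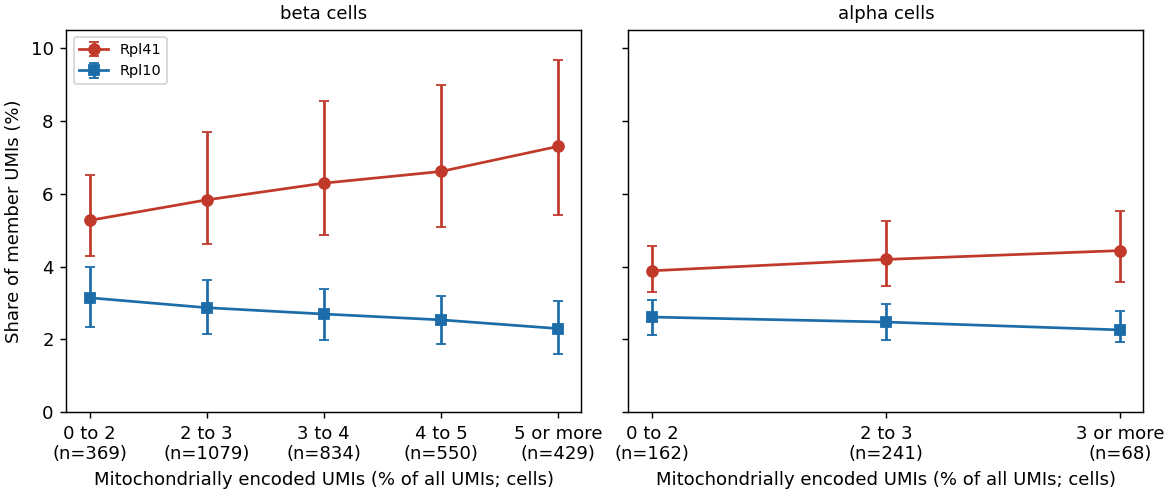
Share of member UMIs taken by Rpl41 and by Rpl10 in WT beta (left) and alpha cells (right), by mitochondrially encoded UMIs as a percent of all; points are medians over cells and bars the 10th to 90th percentile. The medians of Rpl41 go from 5.27% to 7.30% in beta cells and from 3.88% to 4.44% in alpha cells, and those of Rpl10 the other way.

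The members differed from free RNA by coding length. On the scale without hormone and mitochondrial UMIs, members of short coding length mostly stood higher in beta cells than in droplets of at most 200 UMIs. Those of long coding length mostly stood lower. Rps28 (207 coding bases) had a log2 ratio of 0.85, Rps29 (168) 0.82, Rpl41 (75) 0.78 and Rpl39 (153) 0.78. Rpl13 (633) and Rpl7 (810) both had -0.42. Spearman's rho between coding length and this ratio over 83 members was -0.79 in beta, -0.64 in alpha, -0.58 in delta and -0.69 in PP cells, whose ratios share 1 free RNA profile. Over 1951 other genes of the same range of coding length the rho in beta cells was -0.02. With transcript length in place of coding length, the rho over members was weaker. It was -0.40 in beta, -0.36 in alpha, -0.34 in delta and -0.40 in PP cells.

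The 21 members under 360 coding bases had a median ratio of 0.58 in beta cells and the other members -0.07, a limit set after the values were seen. Among other genes of the same range of coding length these medians were 0.04 and -0.05. With droplets of at most 50 UMIs as free RNA, the rho was -0.71 and the medians were 0.12 and -0.12. With droplets of over 200 and up to 2000 UMIs it was -0.65, with medians of 0.23 and -0.15. The order by coding length thus stood with each set of droplets, but the size of the difference depended on the set. Rps27l, with 252 coding bases and -0.06, was the 1 member under 360 bases below 0.

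**Figure D5:**
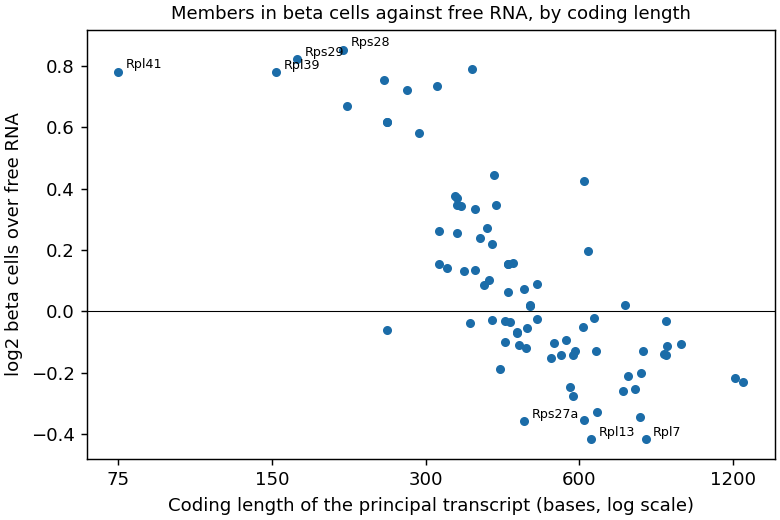
log2 ratio of each of 83 members between WT beta cells and free RNA, both without hormone and mitochondrially encoded UMIs, against coding length on a log axis; each point is 1 member and named points were chosen after their values were seen. Points under 300 bases lie mostly above 0.5 and the longest members below 0.

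Among other genes of translation, elongation factors and further TOP messages had low medians for beta over alpha. Initiation, assembly and mitochondrial ribosome genes had medians near the median gene. The lists were drawn up with earlier results of these data known. Among all 4558 genes tested for beta over alpha, 15.5% were lower and 16.6% higher, to be read beside each list's counts. Of ribosomal genes outside the symbol rule, Fau (-0.76) and Gnb2l1 (-1.14), which encodes the scaffold protein RACK1, were lower in beta than in alpha cells. Of the elongation factor list 4 of 7 genes were lower and 0 higher, with a median of -0.86. Eef1a2, a form of the factor that brings tRNA to the ribosome, had 0.804 CPM in beta and 48.6 in alpha cells, a log2 ratio of -5.46. Eef1a2 was thus tested through alpha cells alone, where it stood higher. Eef1g had -1.41, while Eef2 had -0.51 and Eif5a -0.41. Other messages known for TOP starts were lower in 5 of 6 cases, with a median of -0.84, led by the nucleolar protein Npm1 (-1.16) and by Naca (-1.03), with Btf3 at -0.65 and Nap1l1 at 0.42.

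Initiation factors were lower in 7 of 30 cases and higher in 0, with a median of -0.19, beside 15.5% and 16.6% of all genes tested. They ran from Eif3h (-1.14) and Eif1b (-0.80) to Eif4a2 (0.37) and Eif2s3x (0.52). Ribosome assembly genes were lower in 1 of 14 cases, Gar1 at -0.66, with a median of -0.05 and Nhp2 at -0.55, Nop10 at 0.42 and Ubtf at 0.47. Genes of growth control had 0 of 7 lower and 1 higher, Ddit4 at 1.82, an inhibitor of mTOR signalling. Ddit4 had 33.0 CPM in beta and 12.8 in alpha cells, so it was tested through beta cells alone, where it stood higher. Larp4 followed at 0.52, and Eif4ebp1 (-0.11) and Rps6kb1 (-0.03) were the lowest. The mitochondrial ribosome had 2 of 55 lower and 3 higher, with a median of -0.06 and a range from Mrpl22 (-0.71) and Mrpl52 (-0.67) to Mrps14 (0.60) and Mrpl42 (0.80). The cytosolic and the mitochondrial ribosome thus had medians of -1.08 and -0.06 in the same comparison.

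Against delta cells the lists other than growth control had medians within log2 0.58 of the median gene. Among all 5520 genes tested there, 15.3% were lower and 15.5% higher. Of ribosomal genes outside the rule, Fau stood at 0.01 and Gnb2l1 at 0.10. The median was -0.24 for the elongation factor list and -0.04 for initiation factors. It was -0.17 for other TOP messages (Npm1 -0.57, Naca -0.54, Btf3 -0.12, Tpt1 0.04), 0.13 for assembly genes, 0.59 for growth control and 0.03 for the mitochondrial ribosome. On the elongation factor list Eef1a2 (-3.89) and Eef1e1 (-1.25) were the lowest genes, and Eef1a1 (-0.06) and Eef2 (0.30) the highest. Eef1a2 was tested there through delta cells alone. Eif6, which keeps free large subunits from joining small ones, was the lowest initiation factor at -1.09, before Eif4e (-0.59), and Eif2s3x (0.73) and Eif3b (0.81) were the highest. Of growth control genes 0 of 8 were lower and 4 higher, led by Ddit4 (1.86) and Eif4ebp1 (0.85), with Rps6ka3 (-0.33) and Rps6kb1 (0.04) the lowest. Fbl (-0.61), Nop58 (-0.51), Nop10 (0.45) and Gnl3 (0.48) bounded the assembly genes, and Mrps6 (-1.26), Mrps7 (-0.54), Mrpl17 (0.70) and Mrpl42 (0.94) the mitochondrial ribosome.

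The 549 cells of no class were set apart by markers fixed for other types, each named where at least 3 markers of a set and at least 0.2% of UMIs on that set were found. Of the remaining UMIs, members held 20.9% in 77 cells with macrophage markers and 16.9% in 103 with endothelial markers. In 11 cells with mesenchymal markers they held 19.6%, and in 334 cells with no set 21.6%. The 13 cells with lymphocyte markers held 39.9% (39.7 to 40.2), with single cells from 32.3% to 49.5%, and the 6 with erythroid markers held 7.18% of UMIs, from 4.27% to 9.93%. The lymphocyte-marker cells thus lay above alpha cells in summed share, but 9 of these 13 cells lay near the marker limit. The erythroid-marker and the endothelial-marker cells lay below beta cells, which held 17.4%. Insulin took a median of 22.2% of all UMIs in the 334 cells with no set, against 2.58% in macrophage-marker and 2.20% in endothelial-marker cells. Of the 549 cells, 109 held at least 25% insulin, close under the beta limit of 30%.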

How the data were processed

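The authors deposited raw UMI counts of genes by barcode, per the file headers, with no scaling. FastQC, Trimmomatic and mm10 appear in the submitters' processing notes; which aligner, counter or gene annotation was used is not given in the sources used here. In the labels, snap-frozen islets stand beside a goblet cell sort that does not match islets. The WT matrix (118523180 UMIs, 737280 barcodes) was read whole, and of the transgenic matrix 547 entries were used.

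The members and the lists were chosen with earlier results of these data known. Counts were added up within each class and scaled to CPM, with exact Poisson bounds, shares with exact Clopper-Pearson intervals and ratios with exact conditional binomial intervals. Named members are the 3 highest and 3 lowest of each comparison, the 3 most abundant, the stalk proteins, Rpsa, Rps27a, pairs of like genes and X-linked members, and of each other list the 2 highest and 2 lowest genes; those named for Rpl41 scatter, free RNA or both limits were chosen after their values were seen. Some genes of this rule are not reported here. Copies with -ps in the symbol (16 rows) held 0.806% of the UMIs of members and copies together and were left out. Positions and coding lengths are from GENCODE M21 (GRCm38, APPRIS principal transcripts) and start sites from RefSeq. The ratio step was tested on simulated data. Python 3.11.15, numpy 2.4.6, scipy 1.17.1, pandas 2.3.3 and edgeR 4.0.16 (only for the trimmed mean of M values, an alternative scaling) were used. No paired analysis was possible because each group has 1 library.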

Additional observations from a re-analysis of the deposited data

How the results depend on the processing

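No member past log2 0.58 changed sign under the alternatives, but delta cells stood above PP cells in share of all UMIs and below them without hormone and mitochondrial UMIs. The members' share of all UMIs in beta, alpha, delta, PP and unclassed cells was 6.90%, 19.9%, 14.4%, 11.7% and 14.5% as a median over cells; 7.17%, 20.6%, 15.5%, 12.7% and 15.96% with ribosomal genes outside the symbol rule and the -ps copies; and 17.4%, 29.6%, 20.4%, 23.2% and 21.1% without hormone and mitochondrial UMIs. Alpha cells meeting 1 criterion gave 20.4%. With a limit of 10000 UMIs, delta cells gave 15.8% and unclassed cells 15.2%. In CPM without centring, 83 members were lower for beta over delta, 71 for beta over PP and 16 higher for alpha over delta, with medians of -1.11, -0.84 and 0.44, and -1.53 for beta over alpha. The median gene itself lay at -0.89, -0.33, -0.45 and -0.46 in that order, and shares of all genes past the limit were not counted under the alternatives. Without hormone and mitochondrial UMIs and without centring, the median was -0.77 for beta over alpha, -0.43 for beta over PP (15 lower) and 0.56 for alpha over delta (36 higher). A floor of 50 CPM gave medians of -0.998 for beta over alpha and -0.45 for beta over PP. A floor of 5 CPM gave -1.16 for beta over alpha, -0.28 for beta over delta and -0.57 for beta over PP. Taking off free RNA gave -1.13 for beta over alpha and -0.57 for beta over PP. Equal weight per cell gave -0.16 and 1 higher member for beta over delta, and 0.96 for alpha over delta. A limit of 10000 UMIs gave -0.35 with 14 lower for beta over delta, and 0.77 for alpha over delta. A TOP tract within 3 bases either way was found at 34.6% of member starts, against 11.5% of all. Of 3012 single member values, 1650 moved within their interval, 1362 beyond it and 0 reversed; the causes were not tested. No paired analysis was possible because each group has 1 library. The 149 delta and 117 PP cells give wider counting intervals than the 3261 beta cells.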

Other observations

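In the 782 UMIs at hand from droplets of the miR-203 TG library, 67 lay on 40 members. They made up 8.57% (6.70 to 10.8) of all UMIs and 15.6% (12.3 to 19.4) without hormone and mitochondrial UMIs. WT droplets gave 7.76% and 16.1%, both inside these intervals, so a difference was not detectable at this depth.

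Gm10076, a gene outside the symbol rule, shares 69.9% of its 50-base stretches with transcripts of Rpl41. It stood at 457 CPM in beta, 903 in alpha, 762 in delta and 627 in PP cells, beside 4356, 8367, 7177 and 6027 CPM of Rpl41. Its level per remaining UMI had a Spearman's rho of 0.46 with the Rpl41 share of member UMIs over 3261 beta cells and of 0.39 over 471 alpha cells. Reads of these copies may be split between both genes.

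The Rpl41 share was also set against Fos, Egr1, Ubb and Neat1, genes chosen after their values were seen. In beta cells the rho was -0.39 with Fos, -0.39 with Egr1 and -0.45 with Ubb, a polyubiquitin gene. In alpha cells these were -0.13, -0.04 and -0.10, in delta cells -0.13, 0.04 and -0.18, and in PP cells -0.03, 0.18 and -0.33. With Neat1 the rho was 0.35 in beta, 0.17 in alpha, 0.07 in delta and 0.12 in PP cells. All cells come from 1 library, and total UMIs had a rho of -0.34 with the Rpl41 share in beta cells.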
